A study of Mus musculus with 2 samples.

Results

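The CC chemokine genes Ccl2, Ccl7, Ccl12 and Ccl8 and the chemokine receptor gene Ccr2 were described in single cells sorted from lungs that carried breast cancer metastases. These 5 genes were taken by name out of the 29413 genes with an identifier in both deposited matrices. The study put labelling 4T1 cells into the vein of female Balb/c mice and took the metastatic lungs 7 days later. Cells were sorted from the dissociated lungs and read with a droplet-based method for the 3′ ends of transcripts. One library held niche immune cells and 1 library held distal lung immune cells, and both came from injected mice. 4T1 is a mammary carcinoma line of Balb/c origin that spreads to the lung, and its labelling version is known for passing a fluorescent protein to cells next to it, so that neighbours of the cancer cells can be sorted apart. How many animals each library pools, and which gates were used, is not stated in the labels.

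Chemokines of this family are small secreted proteins that direct the movement of leukocytes. CCL2, CCL7 and mouse CCL12 act on CCR2, the receptor through which inflammatory monocytes leave the bone marrow and enter inflamed tissue. Mouse CCL8 stands somewhat apart, since its best described receptor in the mouse is CCR8. CCL2 made by stromal, tumour and myeloid cells is known for drawing CCR2-bearing monocytes to lung metastases of breast cancer, where they become macrophages.

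Each group was 1 library, which leaves no replicate check, and no p-value was computed. All intervals below are at 95% and cover counting error only, and every niche against distal value compares these 2 libraries. Transcripts were counted by UMIs, random tags added before amplification. The niche matrix had 38036915 UMIs in 3242 barcodes, and the distal matrix 22323465 UMIs in 3945 barcodes. After filtering, 3081 niche and 3535 distal cells were compared, with medians of 11197 and 5786 UMIs per cell. The libraries shared 4 cell barcodes. The matrix headers name different counting software and the gene lists differ, so software and group cannot be told apart, but no exon of the 5 genes overlapped a gene held by only 1 list. Cell classes were rebuilt by clustering without the 5 genes and named from marker genes. Levels are in CPM, the UMIs of a gene per 1000000 UMIs of the cells summed.

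The ligand genes lie together on chromosome 11 of the GRCm38 build, all on the plus strand and all protein coding: Ccl2 at 82035571 to 82037453, Ccl7 at 82045712 to 82047525, Ccl12 at 82101845 to 82103400 and Ccl8 at 82115185 to 82116799. Ccl2 overlaps the span of another annotated gene, Gm17268, in a comparison that left strand aside. Ccr2 lies on chromosome 9 at 124101950 to 124113557, also on the plus strand.

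In the distal library, transcripts of all 4 ligands were concentrated in the monocyte/macrophage-like class, the cells with the markers of interstitial macrophages (C1qa, C1qb, C1qc, Ms4a7 and others). This class held 2124 niche cells (68.9% of that library) and 500 distal cells (14.1%). Ccl2 stood at 329 CPM in the niche and 355 CPM in the distal cells of the class, and Ccl7 at 198 and 194 CPM. Ccl12 stood at 777 CPM in the niche and 644 CPM in the distal cells, and Ccl8 at 706 and 718 CPM. The class held 79.2% of the Ccl2 UMIs of the niche library, where it held 77.7% of all UMIs, and 68.1% of those of the distal library, where it held 18.8% of all UMIs.

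The ligands were nearly absent from lymphoid and endothelial-like cells of the distal library and low in alveolar macrophage-like cells. In the distal library, where 10 classes had at least 50 cells, 349 T cell-like cells together held 1 UMI of Ccl2, 0 of Ccl7, 2 of Ccl12 and 2 of Ccl8. Those levels were at most 0.182% of the levels in the distal monocyte/macrophage-like class, while C1qa, a macrophage gene that T cells lack, was at 0.879% of its level there. C1qa was at 0.0824% in distal B cell-like, 0.112% in endothelial-like and 1.46% in neutrophil-like cells. It therefore does not give a background of free RNA common to all classes. Alveolar macrophage-like cells, the resident macrophages of the air spaces, were the largest distal class with 1116 cells and had 8.55 CPM of Ccl2, 1.81 CPM of Ccl7, 4.57 CPM of Ccl12 and 2.65 CPM of Ccl8. These values were between 0.369% (Ccl8) and 2.41% (Ccl2) of those of the distal monocyte/macrophage-like class, against 0.23% for C1qa, 0.239% for C1qb and 0.213% for C1qc. Apoe was at 1.70% and Cxcl9 at 5.29% of their levels in that class. B cell-like and endothelial-like cells of the distal library had at most 4.71 CPM of any ligand. Fibroblast-like cells, a known source of CCL2, were too few to read: 5 niche cells held 12 UMIs of Ccl2, 11 of them in 1 cell, and 12 distal cells held 0.

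Some myeloid cells outside the class had part of the ligands. Classical monocyte-like cells, the circulating inflammatory monocytes by their markers, had 179 CPM of Ccl2 over 63 distal cells, yet 0 UMIs of Ccl7 and of Ccl8, which allows up to 10.7 CPM of either (3 counts). Thinned to 2000 UMIs per cell, 15.9% of these cells had a UMI of Ccl2, against 0% of 291 T cell-like cells. The 12 niche cells of this class had 0 UMIs of Ccl2, which at this depth allows up to 56.6 CPM. Conventional dendritic-like cells of the distal library had 95.1 CPM of Ccl2 and 23.8 CPM of Ccl7. Most of that Ccl2, 122 of 128 UMIs, was in the cluster led by Cd209a, a gene of type 2 dendritic cells. That cluster had 125 CPM over 25 niche cells and 202 CPM over 73 distal cells. Over all 30 niche conventional dendritic-like cells, 30 of 43 Ccl2 UMIs were in 1 cell. After thinning, 3.45% of niche and 7.80% of distal conventional dendritic-like cells had a UMI of Ccl2. Migratory dendritic-like cells, which carry antigen to lymph nodes, had 174 CPM of Ccl12 and 185 CPM of Ccl8 over 59 niche cells, against 9.05 and 6.03 CPM over 48 distal cells. Of those niche UMIs, 58 of 95 for Ccl12 and 59 of 101 for Ccl8 came from 1 cell each. After thinning, 9.09% of niche and 2.17% of distal migratory dendritic-like cells had a UMI of Ccl12. In B cell-like cells, C1qa was at 4.52% of its monocyte/macrophage-like level in the niche library and at 0.0824% in the distal library. The 38 niche B cell-like cells held 0 UMIs of Ccl12 and 1 of Ccl8. The part of free macrophage RNA in the niche values was not tested.

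**Figure D1:**
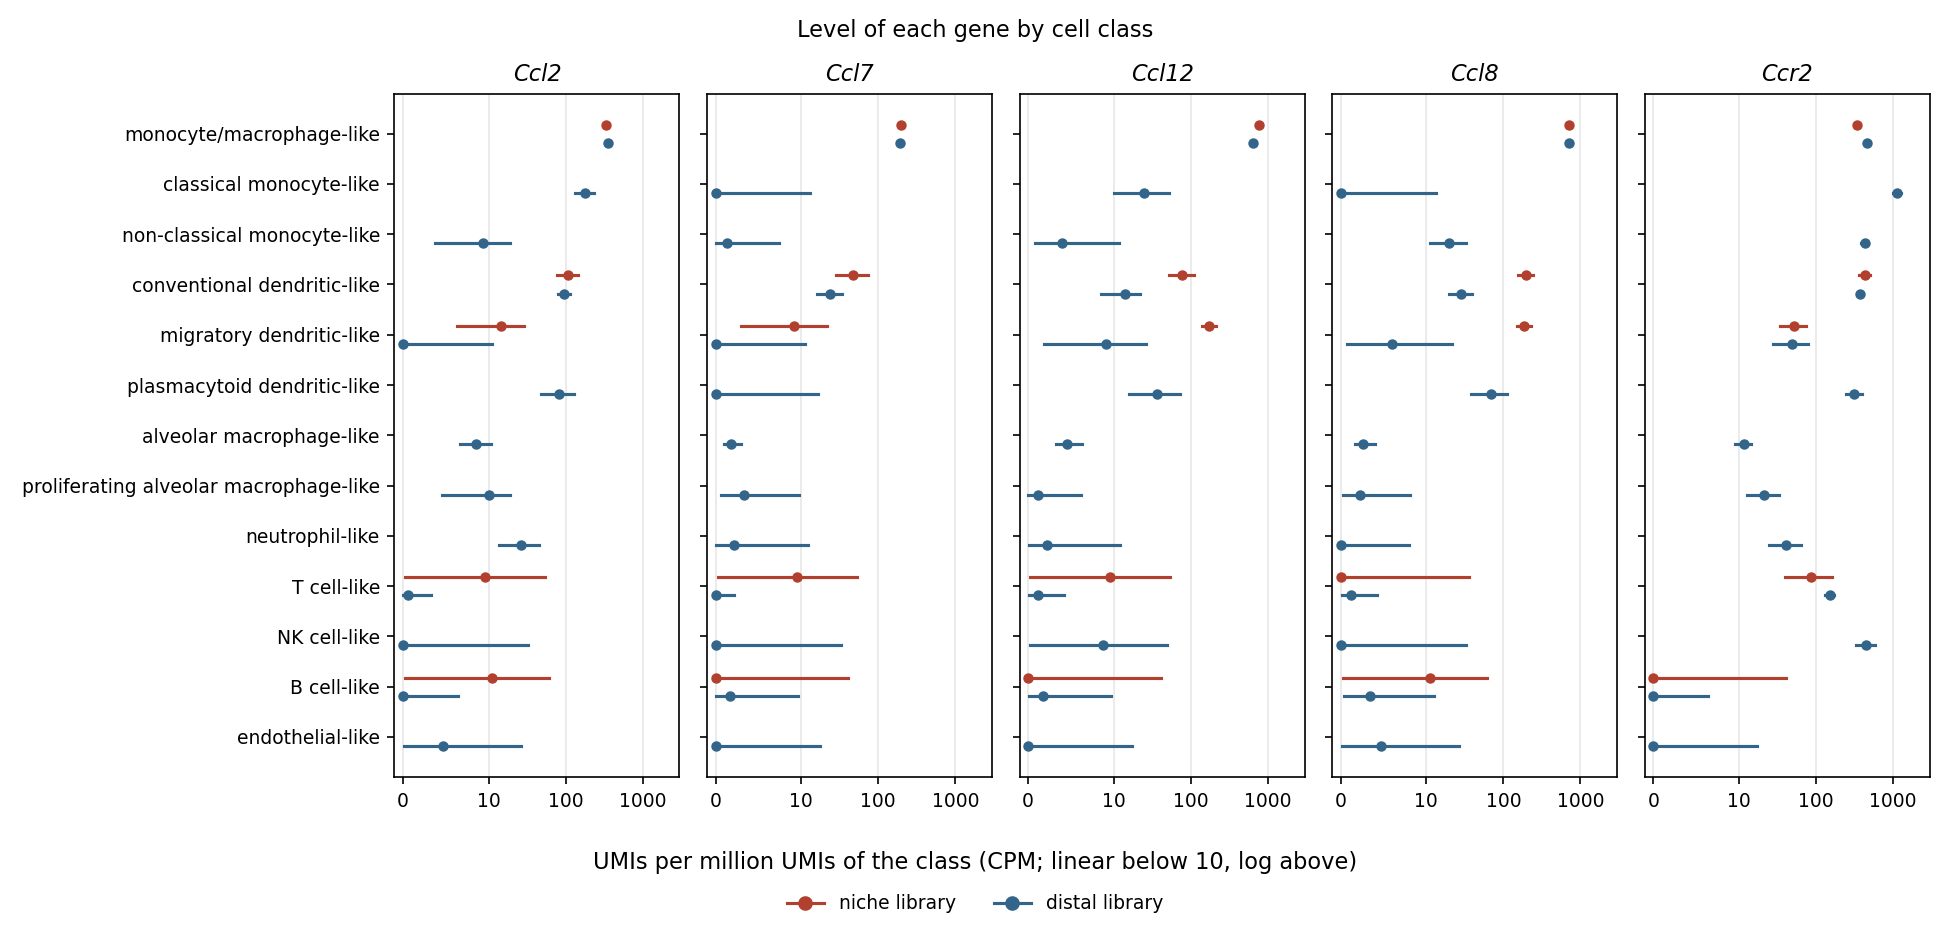
Level of each gene by cell class, in CPM on an axis that is linear below 10 and logarithmic above, for named classes with at least 30 cells in a library (the mixed and the low-UMI cells are not drawn). Points are the sums over all cells of a class and lines are exact Poisson intervals. Among the rows drawn the ligands sit highest in the monocyte/macrophage-like row, while Ccr2 reaches 1130.3 CPM in the distal classical monocyte-like row and is also present in lymphoid rows.

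Ccr2 had a wider and different spread. In the distal library it was highest in classical monocyte-like cells, at 1130.3 CPM (interval 1009 to 1262), with a UMI in 82.5% of these cells after thinning. The 12 niche cells of the same class had 1019.7 CPM. Monocyte/macrophage-like (457 CPM) and non-classical monocyte-like cells (430.3 CPM) followed among the distal classes with at least 50 cells and had overlapping intervals, as did non-classical monocyte-like and conventional dendritic-like cells (376 CPM). The non-classical class was split: its cluster led by Adgre4, Ifitm6 and Ace had 715 CPM over 22 niche cells and 1042 CPM over 27 distal cells, while the cluster led by S1pr5 had 282 CPM over 165 distal cells. T cell-like cells stood at 151 CPM, neutrophil-like cells at 41.4 CPM and alveolar macrophage-like cells at 11.8 CPM. B cell-like and endothelial-like cells of the distal library held 0 UMIs of Ccr2, which allows up to 5.18 and 14.1 CPM.

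Among lymphoid cells the receptor depended on the kind of cell. NK cell-like cells had 448 CPM of Ccr2 over 39 distal cells and group 2 innate lymphoid-like cells 537 CPM over 19. Within the T cell-like class, the cluster led by γδ receptor genes and Ccr4 had 290.2 CPM over 107 distal cells, and the cluster led by Foxp3, the factor that defines regulatory T cells, had 236 CPM over 88. The cluster led by Cd8a, Pdcd1 and Xcl1 had 68.3 CPM over 57 distal cells. The cluster led by Lef1 and Tcf7, genes of naive T cells, had 1 UMI in 97 distal cells, or 4.02 CPM. The share of thinned distal cells with a UMI followed the same order at its ends, with 37.3% in the Ccr4 cluster and 0% in the Lef1 cluster.

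Within the monocyte/macrophage-like class the ligands were most abundant in 1 small cluster. Cluster 11, led by Cd163, Cxcl13, Folr2 and Pf4, with Cd163 a haemoglobin scavenger receptor and Folr2 a folate receptor of resident tissue macrophages, held 91 niche and 128 distal cells. Its Ccl2 level was 1109 CPM in niche and 673 CPM in distal cells. Its Ccl7 level was 1163 CPM in niche and 535 CPM in distal cells, and its Ccl12 level 2447 and 1737 CPM. Ccl8 stood at 2398 CPM in the niche, against 2670.2 CPM in distal cells of cluster 11. In each library these were the highest values among the clusters of the class, although for Ccl2 in the distal library the interval of cluster 11 (618 to 732) overlapped that of cluster 12 (498 to 684).

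In the niche library the next levels of Ccl2 and Ccl12 were in 2 clusters marked by interferon-response and by cell-cycle genes. Cluster 12, led by Rsad2, Ifit3 and Cmpk2, had 1277 CPM of Ccl12 over 171 niche cells and 622 CPM over 38 distal cells. Cluster 5, led by cell-cycle genes such as Pbk and Birc5, had 1188 CPM of Ccl12 over 290 niche cells and 567 CPM over 45 distal cells. Ccl2 was at 509.7 CPM in the niche, against 585 CPM in distal cells of cluster 12, and at 506 and 366 CPM in cluster 5. The largest cluster, cluster 1 (led by Ly6i, Cfb and Cxcl9), had 178 CPM of Ccl2 over 973 niche cells and 401 CPM over 100 distal cells. Cluster 2, led by Arg1, Apoe and Gpnmb, where Apoe encodes a lipid carrier, had 242 CPM of Ccl2 over 311 niche cells and 126 CPM over 158 distal cells. Cluster 7 was led by Zmynd15, Dnase1l3 and Clec9a, with Cadm1 and C1qa also among its leading genes. Clec9a and Cadm1 are on the marker list of type 1 conventional dendritic cells, and Zmynd15 is on that of migratory dendritic cells. The cluster had 8 of 10 interstitial macrophage markers and 3 of 8 type 1 dendritic markers. Ccl8 in cluster 7 was at 1001 CPM over 285 niche cells and at 79.2 CPM over only 20 distal cells.

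**Figure D2:**
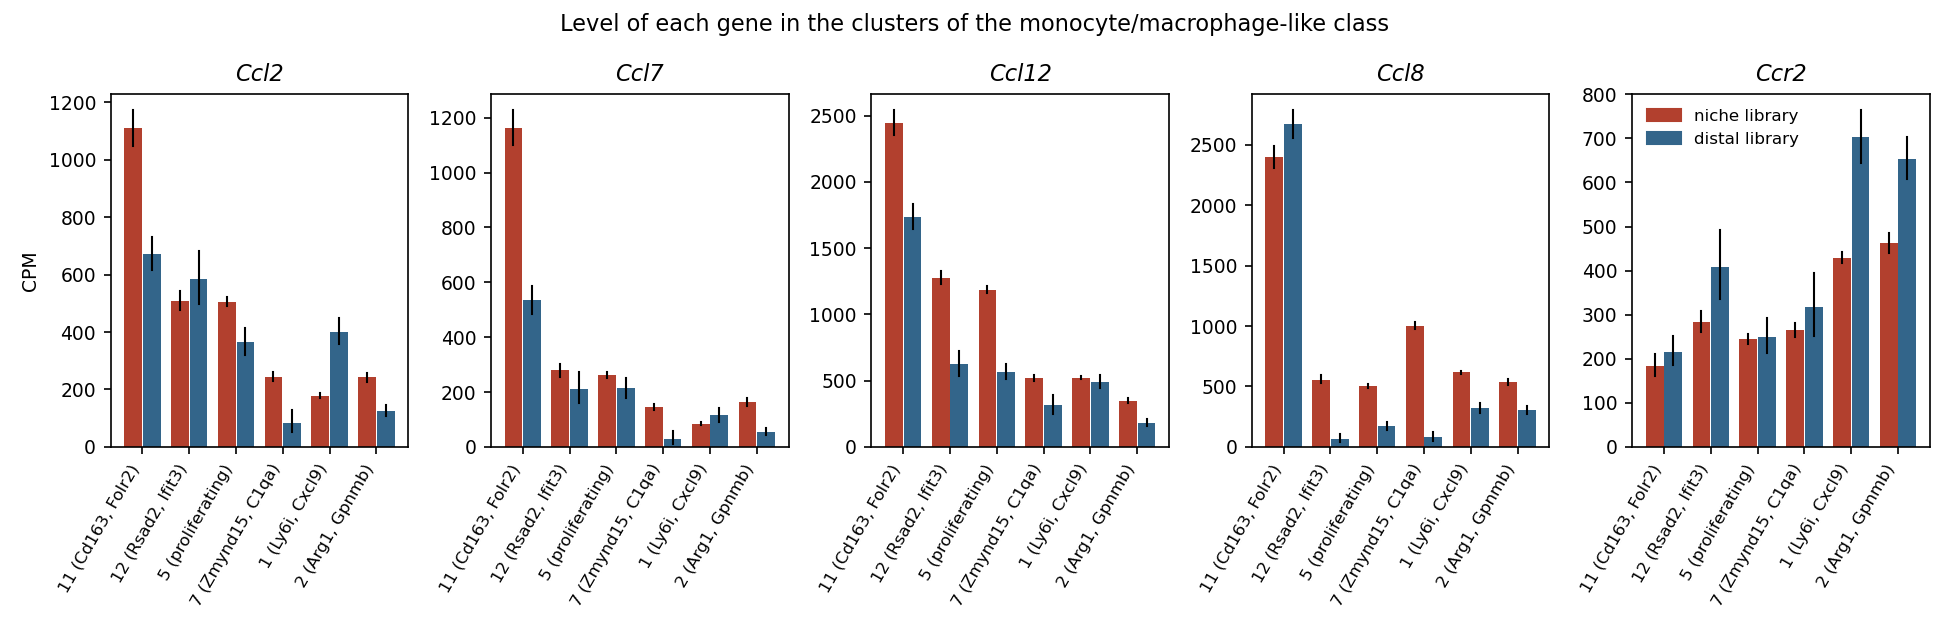
Level of each gene (CPM, axes start at 0) in the clusters of the monocyte/macrophage-like class, with niche bars left of distal bars and lines for exact Poisson intervals. Cluster 11 has the tallest ligand bars in both libraries and the shortest Ccr2 bars, at 184 CPM in the niche, against 216 CPM in distal cells. Distal bars of clusters 12, 5 and 7 rest on 38, 45 and 20 cells.

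The clusters made up the class in different proportions and contributed unequally to the transcripts of each library. Cluster 11 was 4.28% of the niche cells and 25.6% of the distal cells of the class. Of all UMIs of Ccl8 in the library, it held 10.6% in the niche and 64% in the distal cells, and of Ccl7 17.4% and 41.6%. Of all cells compared, it was 2.95% in the niche and 3.62% in the distal library. The largest part of the niche cells of the class lay in cluster 1 (45.8%) and of the distal cells in cluster 2 (31.6%). In the niche library, cluster 5 held the largest share of Ccl12 UMIs of any cluster, 28.4%, and cluster 1 the largest share of Ccl8 UMIs, 27.5%. Cluster 5 was 9.41% of all niche cells compared, with a median of 22423 UMIs per cell. Cluster 1 was 31.6% of them, with a median of 11230 UMIs. Such shares depend on the number and depth of the cells as well as on the level of the gene. A cluster kept out of the class for its low UMI counts, with 362 niche and 11 distal cells, also had 884 CPM of Ccl12 in its niche cells and 272 CPM in its distal cells. Another, kept apart because lymphocyte genes lead it (cluster 6, 234 niche and 89 distal cells), held 16.4% of the Ccl2 UMIs of the niche library and 14.3% of those of the distal library. Cluster 6 was 7.59% of all niche and 2.52% of all distal cells compared, with medians of 19388 and 9617 UMIs per cell. It also had 8 of 10 interstitial macrophage markers.

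Within the class Ccr2 was lowest in the cluster where the ligands were highest. It was at 429.6 CPM in the niche, against 702 CPM in distal cells of cluster 1, and at 462 and 654 CPM in cluster 2. In cluster 11 it was at 184 CPM in the niche, against 216 CPM in distal cells, the lowest level among the clusters of the class with at least 30 cells, although in the distal library its interval overlapped that of cluster 5 (250.4 CPM). Thinned to 2000 UMIs, 20.9% of niche and 24.8% of distal cells of cluster 11 had a UMI of Ccr2, against 50.6% of niche and 62.5% of distal cells of cluster 1.

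Between the libraries, Ccr2 was lower in the niche in the class and in clusters 1, 2 and 11, and this sign held in every setting tried. Over the class it was 0.757-fold as high in niche as in distal cells, a log2 ratio of -0.40 (interval -0.47 to -0.33). The share of thinned cells of the class with a UMI of Ccr2 differed less. It was 44.5% of niche (interval 42.3 to 46.7) and 47.1% of distal cells (interval 42.6 to 51.7), and these intervals overlapped. In cluster 1 the log2 ratio was -0.71 (interval -0.84 to -0.58) and in cluster 2 it was -0.50 (interval -0.63 to -0.38). In cluster 11 it was -0.23, with an interval of -0.53 to 0.07 that spans 0. Over all genes measured in the class, the median log2 ratio was -0.04, and 20.3% of genes lay below Ccr2. Ccr2 was also lower in the niche cells of cluster 6, with a log2 ratio of -0.39 (interval -0.56 to -0.22). That cluster was kept out of the class for its lymphocyte genes but had 8 of 10 interstitial macrophage markers. In conventional dendritic-like cells Ccr2 was at 429 CPM over 30 niche cells (interval 367 to 498) and 376 CPM over 142 distal cells (interval 344 to 410.1). These intervals overlapped.

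For the ligands the whole-class ratios were close to 1 and the clusters went different ways. The log2 ratio of niche over distal in the class was -0.11 for Ccl2 (interval -0.19 to -0.03), 0.03 for Ccl7 (-0.08 to 0.14), 0.27 for Ccl12 (0.21 to 0.33) and -0.02 for Ccl8 (-0.08 to 0.03). Of the 5 genes 0 differed by more than 2-fold in the class, where 8.93% of 11491 genes did. These class values depended on the mix of clusters. Without cluster 11 the Ccl8 ratio was 1.45 and the Ccl7 ratio 0.53, and the Ccl2 ratio turned to 0.11. Without the proliferating cluster the Ccl12 ratio was -0.0075.

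In cluster 11, where the ligands were highest per UMI, 3 of them were higher in the niche library. Ccl7 was 2.17-fold as high (log2 ratio 1.12, interval 0.96 to 1.28), Ccl2 1.65-fold (0.72, interval 0.57 to 0.87) and Ccl12 1.41-fold (0.49, interval 0.40 to 0.59). Their sign held in each of the alternatives, with log2 ratios of 0.94 to 1.56 for Ccl7, 0.65 to 1.02 for Ccl2 and 0.42 to 0.90 for Ccl12. Ccl8 was 0.898-fold as high (log2 ratio -0.16, interval -0.24 to -0.07), and turned to 0.35 when each cell was given the same weight. Of the 5 genes, 1 (Ccl7) passed 2-fold in cluster 11, where 7.41% of 7083 genes did. Shares of cells pointed the same way for Ccl2 and Ccl7: after thinning, 62.8% of niche and 33.6% of distal cells had a UMI of Ccl2, and 48.8% of niche and 24.8% of distal cells one of Ccl7. For Ccl8 the shares were 54.7% of niche and 32% of distal cells, opposite in direction to its summed level. Niche cells of the cluster had a median of 11370 UMIs and distal cells one of 5702 before thinning.

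Clusters 1 and 2 gave ratios that did not last for Ccl2 and Ccl7. In cluster 1 Ccl2 had a log2 ratio of -1.17 (interval -1.34 to -0.99), but without the 3 cells of each library with most Ccl2 it was -0.30, and with cells limited to 5% mitochondrial UMIs it was 0.13. In cluster 2 the Ccl2 ratio of 0.94 (interval 0.69 to 1.21) and the Ccl7 ratio of 1.57 (interval 1.21 to 1.98) turned to -1.24 and -1.27 at a finer clustering, where the best matching cluster held 51.4% of these cells. Ccl8 kept its sign in both, with log2 ratios of 0.95 (interval 0.77 to 1.14) in cluster 1 and 0.80 (interval 0.64 to 0.97) in cluster 2, and 0.62 to 5.55 over the alternatives. Past 2-fold were 1 of the 5 genes in cluster 1 (Ccl2), where 10.5% of 9898 genes were, and 1 in cluster 2 (Ccl7), where 6.68% of 8689 genes were. In cluster 6, kept out of the class, 1 of the 5 passed 2-fold (Ccl8, log2 ratio 1.41), as did 9.53% of 9529 genes.

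**Figure D3:**
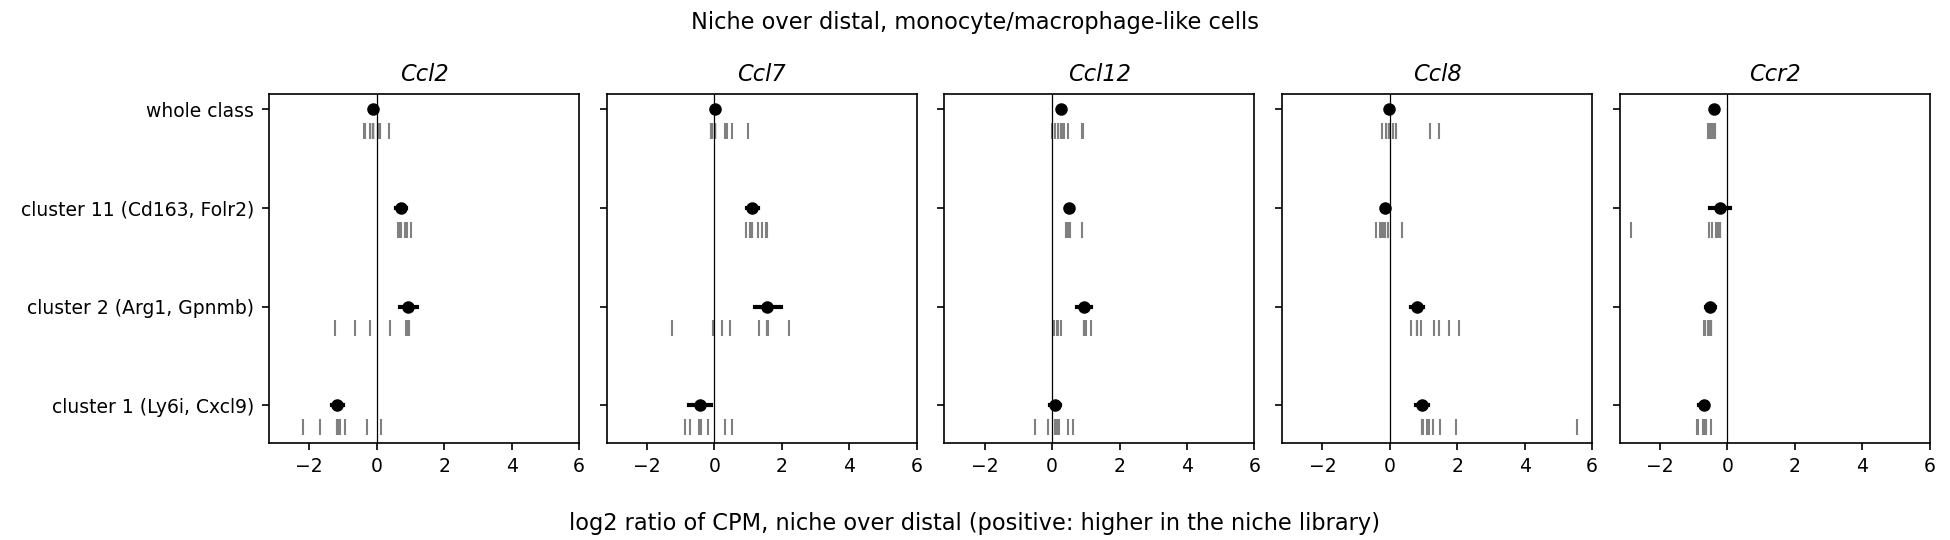
Log2 ratio of CPM, niche over distal, for the whole monocyte/macrophage-like class and its 3 clusters with at least 50 cells in each library. Points and thick lines are the values and their conditional binomial intervals, and grey ticks below them are the values under each alternative. All Ccr2 ticks lie below 0, those of Ccl2, Ccl7 and Ccl12 in cluster 11 lie above 0, and those of Ccl2 in cluster 2 lie on both sides.

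Ligand transcripts were unevenly spread among the cells of the class. After thinning to 2000 UMIs, the top 10% of cells held 94.1% of the Ccl7 UMIs of the class in the niche library and 94.5% in the distal library. For Ccl8 the top 10% held 85.1% in niche and 95.8% in distal cells, and for Ccr2 42.2% and 42.7%. The variance over the mean, which is 1 for counting noise alone, was 20.2 for Ccl8 in niche and 27.5 in distal cells, against 1.49 and 2.06 for Ccr2. Single cells reached 488 UMIs of Ccl8 in the niche library and 261 in the distal library. Ccl12 was less concentrated, with 63.1% of its UMIs in the top 10% of niche cells and 73.1% in the top 10% of distal cells, and Ccl2 had 72.5% and 80.0%. Counting intervals of such sums do not cover the spread between cells.

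The same cells tended to hold several ligands. Among cells thinned to 5000 UMIs, all 4 ligand genes had a UMI in 32 of 83 niche cells of cluster 11 (38.6%, interval 28.1 to 49.9) and in 15 of 85 distal cells (17.6%, interval 10.2 to 27.4). In cluster 1 they did in 2.71% of 886 niche and 3.49% of 86 distal cells, and in cluster 2 in 2.42% of 289 niche and 2.44% of 123 distal cells. Cells with no ligand UMI made up 12% of niche and 24.7% of distal cells of cluster 11, and 32.2% of niche and 40.7% of distal cells of cluster 1.

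**Figure D4:**
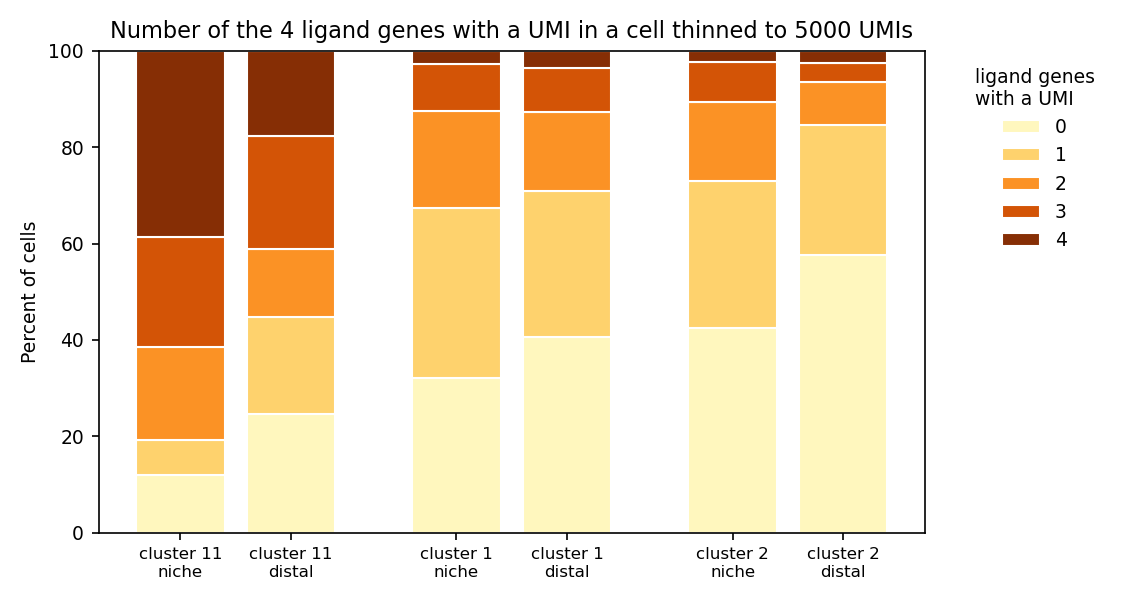
Percent of cells, after thinning to 5000 UMIs, with a UMI of 0, 1, 2, 3 or all 4 of the ligand genes, in clusters 11, 1 and 2 of the niche and the distal library. The darkest segment, all 4 ligands, is 38.6% of niche and 17.6% of distal cells in cluster 11 and under 4% in the other bars.

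Ccl2 and Ccl7, which are neighbours on the chromosome, had the highest ratio of any pair in the class, though in the distal library its interval overlapped those of Ccl7 with Ccl8 (ratio 2.96, interval 1.97 to 4.28), Ccl7 with Ccl12 (2.45, interval 1.79 to 3.26), Ccl2 with Ccl8 (2.01, interval 1.40 to 2.80) and Ccl2 with Ccl12 (1.94, interval up to 2.47). In the class, 161 of 2086 thinned niche cells had both, against 61.2 expected if the genes were detected independently, a ratio of 2.63 (interval 2.24 to 3.07). In the distal library 46 of 490 cells had both against 13.9 expected, a ratio of 3.30 (interval 2.42 to 4.40). Of the niche cells with Ccl7, 63.4% also had Ccl2, as did 75.4% of the distal cells with Ccl7. Within cluster 1, where all cells share 1 cluster, the ratio was 3.27 in niche cells (31 observed and 9.48 expected), and within cluster 2 it was 3.65 (23 and 6.30). In the niche cells of cluster 11, where most cells had Ccl2, the ratio was 1.29 with an interval of 0.89 to 1.80, and in its distal cells it was 2.11 with an interval of 1.32 to 3.20. The highest value such a ratio can reach falls as more cells have either gene. Its size therefore does not compare the strength of pairing across clusters or pairs. Of the niche cells with Ccl7, 81.0% in cluster 11 and 55.4% in cluster 1 also had Ccl2.

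Ccl12 and Ccl8, the other pair of neighbours, had lower ratios, 1.23 in niche (interval 1.08 to 1.39) and 1.71 in distal cells (interval 1.22 to 2.33). Ligand and receptor were not found together beyond expectation in the class. Ccl7 and Ccr2 had a ratio of 0.743 in niche (interval 0.593 to 0.92) and 0.835 in distal cells (interval 0.535 to 1.24), and Ccl8 and Ccr2 had 0.875 in niche (interval 0.756 to 1.007) and 0.474 in distal cells (interval 0.276 to 0.76). The distal value for Ccl8 and Ccr2 was 0.741 at 5000 UMIs (interval 0.534 to 1.002) and 0.775 without thinning. Within the niche cells of cluster 11, 1 cell had both Ccl7 and Ccr2 against 8.79 expected at 2000 UMIs, a ratio of 0.114 that was 0.523 at 5000 UMIs (9 and 17.2 cells) and 0.820 without thinning. In its distal cells the ratio was 0.780, and in the niche cells of cluster 1 the numbers were 31 and 28.3. For Ccl8 and Ccr2 in the distal cells of cluster 11 the ratio was 0.504 (interval 0.164 to 1.18). It was 0.383 at 5000 UMIs (interval 0.141 to 0.835) and 0.444 without thinning (interval 0.203 to 0.844). In the niche cells of cluster 11 this pair had 0.610, 0.684 and 0.841 at these settings, with intervals that span 1. Such ratios over the whole class include differences between its clusters, and part of the cells of a class can be doublets, whose calling failed here.

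**Figure D5:**
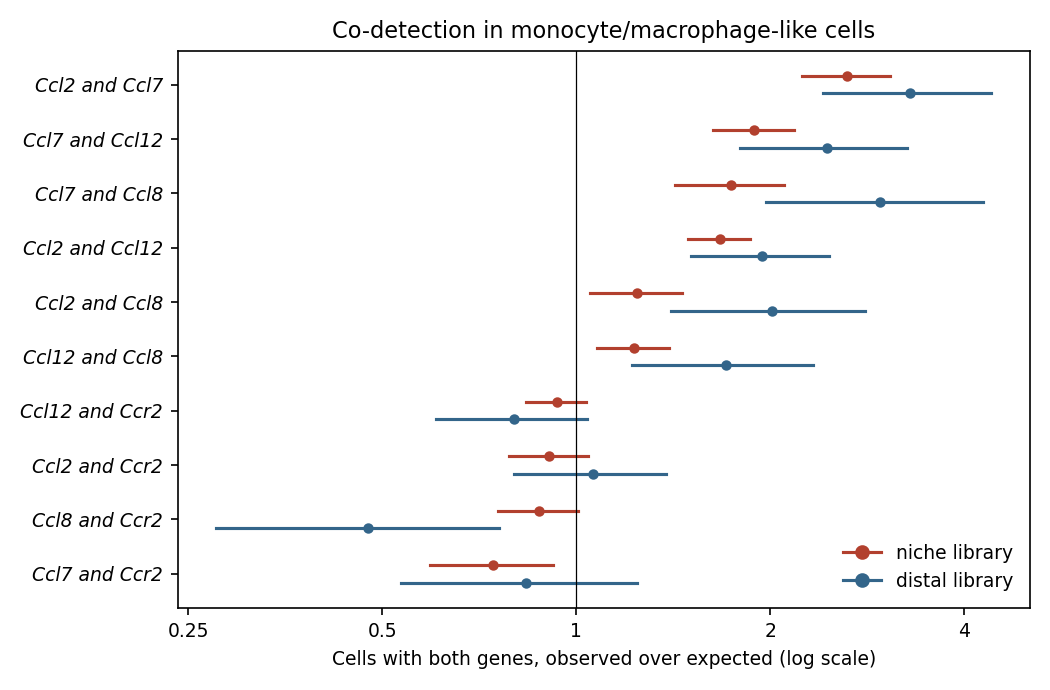
Cells of the monocyte/macrophage-like class with UMIs of both genes of a pair, observed over expected under independence, after thinning to 2000 UMIs, on a log axis with intervals from the observed count. Pairs of ligands lie above 1 in both libraries, led by Ccl2 and Ccl7 at 2.63 in niche and 3.30 in distal cells, and pairs with Ccr2 lie at or below 1 except Ccl2 and Ccr2 in distal cells.

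The balance of Ccl8 to Ccl12 differed between clusters and between libraries. UMIs of Ccl8 per UMI of Ccl12 were 1.92 in niche cells of cluster 7, 1.18 in niche and 0.648 in distal cells of cluster 1, and 1.54 in niche and 1.69 in distal cells of cluster 2. They were 0.424 in niche and 0.305 in distal cells of the proliferating cluster 5, and 0.437 in niche and 0.107 in distal cells of the interferon-response cluster 12. In cluster 11 the ratio was 0.980 in niche cells (interval 0.929 to 1.03) and 1.54 in distal cells (interval 1.44 to 1.65), so the order of the libraries was the reverse of that in cluster 1. A ratio of 2 genes of the same cells does not depend on the total of UMIs.

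Over clusters, the level of Ccl12 went with that of Ccl8 (mean Pearson correlation over the 2 libraries 0.93, from 11 niche and 23 distal clusters with at least 30 cells) and that of Ccl2 with that of Ccl7 (0.92). These points share their library and their cells' depth, and the values are descriptions. By rank (Spearman) the pairs had 0.59 and 0.83. Of 4563 genes compared, those most like Ccl12 were C1qc, C1qb and Ms4a7 and those most like Ccl8 were C1qc, C1qb and C1qa, with correlations of 0.92 to 0.93 for these genes; C1qa, C1qb and C1qc encode the chains of complement C1q. Plau, which encodes the urokinase plasminogen activator, came first for Ccl2 (0.90), and Hpgds, a prostaglandin D synthase, first for Ccl7 (0.92). Ccr2 was most like Arpc1b (0.88), which encodes a subunit of the actin-nucleating Arp complex. The correlation of Ccr2 with the ligands was 0.52 to 0.68, or 0.11 to 0.37 by rank. By library it was 0.65 to 0.84 over the 11 niche clusters and 0.40 to 0.58 over the 23 distal clusters. By rank, C1qc and Ms4a7 were not among the 5 genes most like Ccl12, nor C1qa among those most like Ccl8.

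Promoter sequence was taken from RefSeq (build GRCm38.p6), which matched 3 of the 5 genes. The windows of Ccl12 and Ccl8 are shown because their levels went together over clusters while their balance differed. The window of Ccr2 overlaps the annotated gene and is not shown. Each is the 250 bases before the gene's start, 5′ to 3′ on the plus strand, with capitals for matches to the motifs named below.
Ccl12, chr11:82101595-82101844: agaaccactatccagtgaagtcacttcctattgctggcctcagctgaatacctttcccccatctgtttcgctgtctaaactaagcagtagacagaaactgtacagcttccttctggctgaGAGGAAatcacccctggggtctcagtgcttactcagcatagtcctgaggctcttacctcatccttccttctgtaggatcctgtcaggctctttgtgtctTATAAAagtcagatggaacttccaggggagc
Ccl8, chr11:82114935-82115184: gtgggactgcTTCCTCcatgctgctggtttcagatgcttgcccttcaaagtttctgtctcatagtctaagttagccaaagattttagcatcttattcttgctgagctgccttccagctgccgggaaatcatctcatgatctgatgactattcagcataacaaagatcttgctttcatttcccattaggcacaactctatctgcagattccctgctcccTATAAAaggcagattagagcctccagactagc
Both strands were searched for the TATA box TATAAA, the PU.1 core GAGGAA, the AP-1 site TGANTCA, the interferon-gamma-activated site TTCNNNGAA, the interferon-stimulated element GAAANNGAAA and the NF-kB consensus; no matches overlapped. Ccl12 held a TATAAA beginning 31 bases before the start and Ccl8 one beginning 32 bases before it, a motif found in 12.4% of 32851 promoters of the same length. Each also held 1 GAGGAA, 130 bases before the start in Ccl12 and, on the other strand, 240 bases before it in Ccl8, against 23.3% of all promoters. Neither window held a match to the other 4 motifs, which are in 6.75% (AP-1), 7.02% (interferon-gamma-activated site), 2.98% (interferon-stimulated element) and 7.25% (NF-kB) of all promoters. These letters in these windows are all that was compared.

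Other chemokine and signalling genes of the class gave the setting of these values. Of 15 other CC chemokine ligand genes, 9 reached 20 UMIs over both libraries there, and 3 of these had a log2 ratio above 0 and 6 below, with a median of -0.85 against -0.04 for all genes. Lower past 2-fold in the niche were 3 of the 9, against 6.07% of all genes. Ccl6 was at 215 CPM in the niche, against 669.9 CPM in distal cells (log2 ratio -1.64), Ccl9 at 59.7 and 162 CPM (-1.44), Ccl3 at 74.2 and 167 CPM (-1.17) and Ccl4 at 399 and 634 CPM (-0.67). Ccl24, an eosinophil attractant, was at 65.6 CPM in the niche, against 118 CPM in distal cells. Ccl5, a T cell and monocyte attractant named after its value was seen, was at 1153 CPM in the niche, against 874 CPM in distal cells. Within clusters 1, 2 and 11 the list of other CC ligands had medians of -0.39, -0.46 and -0.36. Of its measured genes, 2 of 7, 2 of 8 and 0 of 7 were lower past 2-fold, and 2 were higher past 2-fold in cluster 11. Past 2-fold in either direction were 10.5%, 6.68% and 7.41% of all genes in these clusters.

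The receptor and signalling lists differed less. Of 10 other chemokine receptor genes, 5 were measured, 2 above and 3 below 0. Cx3cr1, the fractalkine receptor of monocytes and macrophages, was at 126 CPM in the niche, against 209.9 CPM in distal cells (log2 ratio -0.74). Within clusters, niche and distal levels of Cx3cr1 were 79.3 and 76.4 CPM in cluster 1 and 127 and 184 CPM in cluster 2. In cluster 11 they were 386 and 457 CPM. All 15 genes of CCR2 signalling and trafficking (G protein subunits, arrestins, receptor kinases and others) were measured, with a median of -0.14 and 0 past 2-fold. Among 17 known inducers and transcription factors of Ccl2-family genes, 15 were measured and 14 of these lay below 0, with a median of -0.52, and 3 were lower past 2-fold, against 6.07% of all genes. Within clusters the list lay nearer to 0, with medians of -0.12 in cluster 1, -0.25 in cluster 2 and -0.19 in cluster 11, and 0, 1 and 0 genes lower past 2-fold. Jun, a subunit of AP-1, was at 158 CPM in the niche, against 397 CPM in distal cells (log2 ratio -1.32), and Fos, its partner, at 1133 and 1886 CPM (-0.74). The NF-kB inhibitors Nfkbia and Nfkbiz had log2 ratios of -0.73 and -0.92, and Il10, an anti-inflammatory cytokine, -1.89 on 86 niche and 44 distal UMIs.

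Genes of monocyte-to-macrophage differentiation, a list of monocyte and macrophage genes, were mostly lower in niche cells of the class, but not in cluster 1. Of 16 genes of monocyte-to-macrophage differentiation, 12 lay below 0 with a median of -0.42, and 4 were lower past 2-fold, against 6.07% of all genes. In cluster 1, 9 of 14 measured genes lay above 0 with a median of 0.07, and the medians were -0.29 in cluster 2 and -0.14 in cluster 11; in these clusters 1, 0 and 0 genes were lower past 2-fold. F13a1, a monocyte transglutaminase, was at 6.42 CPM in the niche, against 38.7 CPM in distal cells (log2 ratio -2.59), Gpnmb at 10.2 and 37.3 CPM (-1.87), and Mrc1, the mannose receptor, at 54.3 and 135 CPM (-1.31). Within cluster 11, which was 4.28% of niche and 25.6% of distal cells of the class, F13a1 stood at 134 CPM in the niche, against 168 CPM in the distal cells, and Mrc1 at 473 against 498 CPM. Within cluster 2, which was 14.6% of niche and 31.6% of distal cells of the class, Gpnmb stood at 68.6 against 111 CPM. The summed level of the 9 classical monocyte markers in the class was 1461 CPM in niche and 2078 CPM in distal cells, and 0 of the 9 were higher in the niche. In cluster 1 it was 2179 CPM in niche and 3673 CPM in distal cells, and 1 of the 9 was higher in the niche. In cluster 11 the sum went the other way, 449 CPM in niche and 362 CPM in distal cells. The part of these differences in the Ccr2 ratios was not tested.

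Markers of other cell types also differed inside the class. The summed level of 9 alveolar macrophage markers was 13.4 CPM in niche and 118 CPM in distal cells, with 1 of the 9 at 0 in the niche. That of 9 B cell markers was 113 CPM in niche and 246 CPM in distal cells, and in cluster 11 it was 319 and 410.0 CPM. The 8 T cell markers summed to 5.19 CPM in niche and 11.03 CPM in distal cells, and the 9 neutrophil markers to 118 and 129 CPM. Their part in the ratios was not tested.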

How the data were processed

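Per the labels' protocols, sorted cells went through a Chromium 3′ kit. The authors deposited 1 matrix of UMI counts per library, not normalized. Per the file headers, the niche matrix was written by cellranger-6.0.0 and the distal matrix by version 3.0.2. The submitters' processing notes name Cell Ranger 3.02, Seurat 4.1.1, RSEM, Bowtie2, mm10 and GRCm38.

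The matrices were joined on 29413 shared Ensembl identifiers. Barcodes needed 200 genes, and no more than 10% of their UMIs could be mitochondrial. This second limit removed 161 niche and 405 distal barcodes for mitochondrial UMIs. Scrublet called 5 doublets (0.0755% of 6621 cells), so doublet calling did not work. Both libraries were clustered together (2000 variable genes without the 5 genes and related lists, 30 principal components, 20 neighbours, Leiden resolution 1) with scanpy 1.11.5 and leidenalg 0.10.2 under Python 3.11.15, numpy 2.4.6, scipy 1.17.1 and pandas 2.3.3. A class needed 0.75 of its markers and at least 3. A marker was present at 0.15 of the highest cluster's level and in 10% of cells.

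UMIs were summed per class and turned into CPM with exact Poisson intervals. Log2 ratios had 0.5 UMI added and exact conditional binomial intervals, for genes with at least 20 UMIs over both libraries. Shares used cells thinned to 2000 UMIs with Clopper-Pearson intervals. PCR and droplet noise are not covered. Classes were compared with at least 50 cells, and patterns used clusters with at least 30. Genes of a list were named when they had at least 100 UMIs and differed by 1.5-fold, up to 5 per list. The computations were tested on simulated data. The genes and lists were chosen with earlier results of these data known.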

Additional observations from a re-analysis of the deposited data

Results flagged for a closer look

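The niche over distal difference of 3 ligands had opposite signs in different clusters of the monocyte/macrophage-like class. This difference between clusters was not tested, since each library is 1 sample. The log2 ratio of Ccl2 was 0.94 in cluster 2 and 0.72 in cluster 11, but -1.17 in cluster 1. That of Ccl7 was 1.57 in cluster 2 and 1.12 in cluster 11, but -0.44 in cluster 1. For Ccl8 it was 0.95 in cluster 1 and 0.80 in cluster 2, but -0.16 in cluster 11. The signs in cluster 11 for Ccl2 and Ccl7 and those in clusters 1 and 2 for Ccl8 held in every alternative, and the others turned in at least 1.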

How the results depend on the processing

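Of 329 values under alternatives, 190 stayed within the error of the main value. Of the 205 log2 ratios of the 5 genes among them, 25 changed sign, and for 11 of these the interval of the main value spanned 0. Log2 ratios of the class, in the order Ccl2, Ccl7, Ccl12, Ccl8 and Ccr2 where they moved, were as follows. With the highest 5% of doublet scores left out they were 0.036, 0.36, 0.90, 1.20 and -0.58; there the cluster matching cluster 11 was classed as mixed and left the class. Without the proliferating cluster Ccl2 was -0.35, Ccl7 -0.091, Ccl12 -0.0075 and Ccl8 -0.10. At 5% mitochondrial UMIs Ccl7 was -0.11, Ccl12 0.18 and Ccl8 0.18. With each cell weighted equally Ccl2 was -0.37, Ccl12 0.10 and Ccr2 -0.49. The following were chosen after seeing the data. Without cluster 11 the values were 0.11, 0.53, 0.93, 1.45 and -0.55. With clusters 1, 2 and 11 weighted equally they were 0.35, 1.003, 0.46, 0.11 and -0.55. Without the 3 cells with most UMIs Ccl2 was 0.093, Ccl7 0.31, Ccl12 0.35 and Ccl8 0.19. Without cluster 7 Ccl8 was -0.22. Adding the low-UMI cluster moved none of the 5.

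Within clusters, Ccl2 turned to 0.13 in cluster 1 at 5% mitochondrial UMIs, and in cluster 2 to -1.24 at resolution 1.6, -0.64 at 5% mitochondrial UMIs and -0.21 without high doublet scores. Ccl7 turned to 0.32 in cluster 1 at 5% mitochondrial UMIs and 0.52 without the 3 top cells, and in cluster 2 to -1.27 at resolution 1.6 and -0.038 without high doublet scores. Ccl8 turned to 0.35 in cluster 11 with cells weighted equally. The cause was not tested.

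Levels in cluster 11 followed its boundary. At resolution 0.6, where 41 niche and 41 distal cells remained, niche and distal levels were 1741 and 979.7 CPM for Ccl2, 2331 and 881 CPM for Ccl7, 3468 and 2504 CPM for Ccl12, and 4370.0 and 5830.5 CPM for Ccl8. At resolution 1.6 niche Ccl12 was 2319 CPM and niche Ccl8 2296 CPM. At 5% mitochondrial UMIs niche levels were 1254 CPM for Ccl7, 2727 CPM for Ccl12 and 2062 CPM for Ccl8, and distal levels 736 CPM for Ccl2, 653 CPM for Ccl7, 1899 CPM for Ccl12 and 2379 CPM for Ccl8. Without high doublet scores niche Ccl12 was 2349 CPM, and distal levels were 586 CPM for Ccl2, 475 CPM for Ccl7 and 2547 CPM for Ccl8. Without thinning, Ccl2 with Ccl7 stood at 1.81 in niche and 2.40 in distal cells, and Ccl2 with Ccl12 at 1.31 in niche cells (1.45 at 5000 UMIs).

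No paired analysis was possible because each group is 1 library. The depth of small niche classes limits their values: 12 classical monocyte-like cells allow up to 56.6 CPM of an undetected gene.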
